A study of Mus musculus with 2 samples.

Results

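The genes described here are those of telomerase, of shelterin and of 2 proteins that work beside them, measured as messenger RNA in mouse embryonic stem cells. The members were the 10 listed genes Tert, Dkc1, Terf1, Terf2, Terf2ip, Pot1a, Tinf2, Acd, Rif1 and Rtel1, found by symbol with GENCODE M21 among the 47643 Ensembl gene IDs of both count files, and all 10 were found. The cells were of the E14 line, of 129/Ola background and blastocyst origin, and carried, per the labels, a knockout of both Ago1 and Ago2, whose Argonaute proteins bind microRNAs and repress their targets. Both libraries of the series, 2 in number, are of this genotype and are called replicate 2 and replicate 1. They had 29789560 and 34798975 gene counts. The medium held 15% serum and LIF at 100 U/mL, which keeps such cells self-renewing, and the plates were coated with 0.2% gelatine. No unmodified cells were analysed here, so no value measures an effect of the knockout. Separate cultures or clones are not stated in the labels, so the spread and the p-values between libraries may reflect technical differences only. In such bulk RNA, fewer cells of a type and less RNA per cell cannot be told apart.

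Telomerase is a reverse transcriptase that adds telomeric repeats to chromosome ends, using a template in its own RNA subunit, Terc. Tert is the catalytic protein, and dyskerin, encoded by Dkc1, binds and stabilises the RNA together with Nop10, Nhp2 and Gar1. Shelterin coats the repeats: Terf1 and Terf2 encode the proteins TRF1 and TRF2 that bind double-stranded repeats, Tinf2 encodes the hub TIN2, Terf2ip encodes RAP1, and Acd encodes TPP1, which joins the single-strand binding protein POT1 to the complex and recruits telomerase. Mice carry a pair of POT1 genes, Pot1a and Pot1b, where humans have a single gene. Pluripotent cells maintain telomere length with active telomerase, which most adult somatic cells lack.

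Levels are given in TPM, counts divided by the length of a gene's annotated exons and scaled to a common total, because only a per-length scale allows genes to be compared. A gene was called expressed at 1 CPM (counts scaled to the library total only) or more in both libraries. Intervals are 95% exact Poisson intervals and cover counting error only. All 8 embryonic stem cell markers were expressed, from a mean of 50.1 TPM for Klf4 to 12986 TPM for Dppa5a. They summed to 16869 TPM in replicate 2 and 18492 TPM in replicate 1. Most of this was Dppa5a, at 12192 and 13780 TPM, and 38.6% of its sequence recurs in other genes. Of the 8 fibroblast markers, which feeder cells would bring, 3 were expressed. These were Thy1 at a mean of 22.0 TPM, Pdgfrb at 1.80 TPM and Col1a1 at 1.07 TPM. The 8 summed to 24.1 and 25.7 TPM, mostly Thy1, while Col3a1, Postn and Lum had no count. None of the 5 endoderm, 3 mesoderm and 4 trophoblast markers was expressed, and 3 of 4 neuroectoderm markers were, at a summed 11.2 and 7.49 TPM. Ago1 had 141 CPM in replicate 2 and 70.8 CPM in replicate 1, and Ago2 had 129 and 124 CPM. The log2 ratios of replicate 2 over replicate 1 were 0.99 for Ago1 and 0.06 for Ago2. Both tests between the libraries described below called Ago1 higher in replicate 2 (adjusted p 1.37e-08 by edgeR's exact test), and neither called Ago2. The libraries thus differed at a targeted gene, and the cause was not tested. Gene counts do not show a frameshift or a lost exon, so these values check no genotype.

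All 10 genes were expressed in both libraries, over a 22.1-fold range of TPM. By comparison, 58.0% of the 21620 protein-coding genes were expressed. The order from highest to lowest was Dkc1, Rif1, Terf1, Rtel1, Terf2, Tinf2, Pot1a, Terf2ip, Acd and Tert. Of these, 5 lay above the median expressed gene (16.8 TPM) in mean TPM and 5 below it. Tinf2, counted below, had 16.1 TPM in replicate 2 and 17.3 TPM in replicate 1, so its side of that median was not resolved. The ranges of the libraries did not overlap for any of the 9 neighbouring pairs. Counting intervals overlapped for Terf2ip and Acd in both libraries, for Pot1a and Terf2ip in replicate 2, and for Acd and Tert in replicate 1, so the order within this low group was not resolved beyond counting error. Members were nearly as high or as low in either library, with SDs of 0.694 to 9.75% of the mean.

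**Figure D1:**
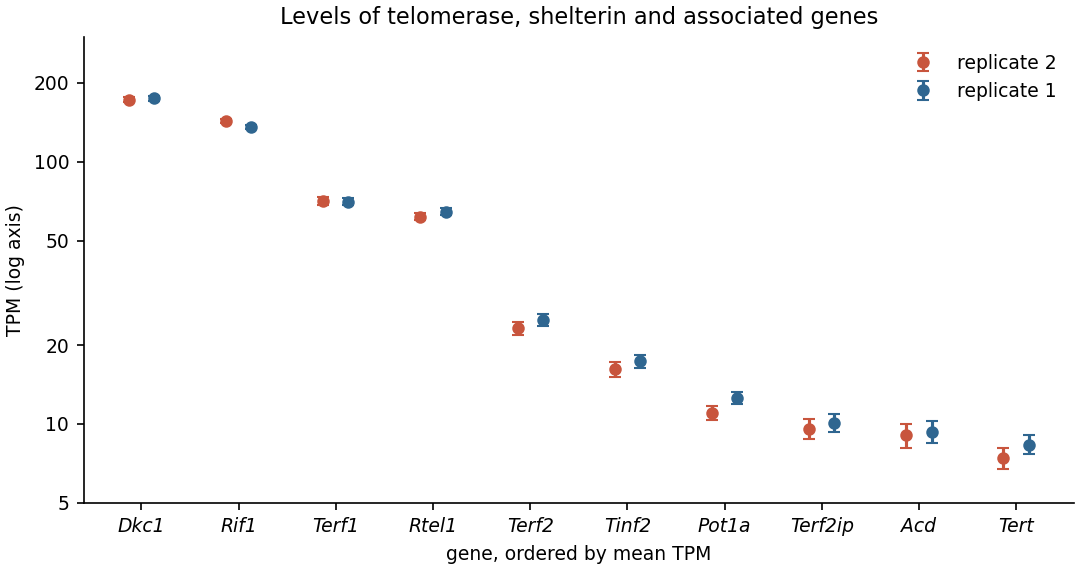
Level of each of the 10 genes in TPM (log axis) in replicate 2 and replicate 1, with 95% exact Poisson intervals as bars. Dkc1 and Rif1 stand above 100 TPM, Terf1 and Rtel1 between 61.7 and 71.0 TPM, and the other 6 genes between 7.38 and 24.9 TPM.

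The genes encoding the telomerase proteins lay at opposite ends of this range. Tert (ENSMUSG00000021611; GRCm38 chr13:73626911-73649843, plus strand) had 458 counts in replicate 2 and 602 in replicate 1. These equal 7.38 TPM (interval 6.72 to 8.09) and 8.34 TPM (7.69 to 9.04), a mean of 7.86 ± 0.681 TPM (SD, n = 2). Tert was the lowest of the 10 genes in both libraries, ranked 9684 of 14063 expressed genes with a TPM, with 31.1% of them below it. Dkc1 (ENSMUSG00000031403; chrX:75095854-75109777, plus strand) had 7691 and 9053 counts, or 172 TPM (169 to 176) in replicate 2 and 174 TPM (171 to 178) in replicate 1. It was the highest of the 10, at rank 785, with 94.4% of expressed genes below it. The TPM of Tert was 0.0428 of that of Dkc1 in replicate 2 and 0.0478 in replicate 1. With the median transcript length this ratio was 0.0157, where Dkc1 had 385 TPM and Tert 6.05 TPM. Dyskerin also modifies ribosomal RNA with small nucleolar RNAs in every cell, whereas Tert serves telomeres.

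The RefSeq promoters of this pair are shown because they stand at the lowest and the highest level of the 10 genes. Each runs from 250 bases before to 50 bases after the annotated start (RefSeq, GRCm38.p6), and capitals mark the GC box, GGGCGG or its reverse CCGCCC, a binding motif of SP1. The first lies at chr13:73626661-73626960 and the second at chrX:75095604-75095903, both on the plus strand.
Tert: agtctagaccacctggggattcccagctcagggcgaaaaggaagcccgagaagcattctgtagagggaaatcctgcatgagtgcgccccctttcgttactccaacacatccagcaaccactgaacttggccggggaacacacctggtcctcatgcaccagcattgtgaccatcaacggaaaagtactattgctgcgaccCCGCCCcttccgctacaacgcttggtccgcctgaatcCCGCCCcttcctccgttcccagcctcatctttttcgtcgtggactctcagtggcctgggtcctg
Dkc1: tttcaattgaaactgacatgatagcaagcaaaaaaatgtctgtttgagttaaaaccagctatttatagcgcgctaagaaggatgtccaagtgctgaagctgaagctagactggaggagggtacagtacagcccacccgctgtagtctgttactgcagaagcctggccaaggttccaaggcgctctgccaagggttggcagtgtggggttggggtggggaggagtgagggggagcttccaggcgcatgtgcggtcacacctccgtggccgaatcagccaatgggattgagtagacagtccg
The Tert window held 2 GC boxes and the Dkc1 window none, at a GC content of 57.3 and 53.0%. Of the 8 members with a promoter in the table, 5 held a GC box, against 35.7% of all 32851 promoters. That background includes genes not expressed here, whereas all members were expressed. The member windows also had a higher median GC content, 55.8% against 52.7% of all promoters, so the 2 shares are not for like sets. The E-box CACGTG, the motif of MYC and MAX, reads the same on both strands and was searched too. It occurred in none of the 8 windows and in 7.15% of all promoters. Terf1 and Rif1 were not in the promoter table. A match describes letters in a window, and its absence draws nothing about a factor.

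Among the shelterin genes, Terf1 was the most abundant transcript per length. Terf1 (ENSMUSG00000025925; chr1:15805646-15844052, plus strand) had 71.0 TPM (68.6 to 73.3) in replicate 2 and 70.3 TPM (68.1 to 72.5) in replicate 1, from 3541 and 4077 counts. It made up 49.0 and 47.0% of the summed TPM of the 7 shelterin genes. Terf2 (ENSMUSG00000031921; chr8:107069400-107096547, minus strand), whose product guards ends from fusion, had 23.2 TPM (21.9 to 24.6) and 24.9 TPM (23.6 to 26.2). Its level was 0.340 ± 0.0192 of that of Terf1 (SD, n = 2), although both proteins bind the same repeats as dimers. The counts were 1154 and 1439.

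The genes for the subunits that TRF1 and TRF2 carry were lower. Tinf2 (ENSMUSG00000007589; chr14:55674689-55681820, minus strand), the hub that ties TRF1, TRF2 and TPP1 together, had 863 counts in replicate 2 and 1077 in replicate 1. These equal 16.1 TPM (15.1 to 17.3) and 17.3 TPM (16.3 to 18.4), which sets it just below Terf2 in both libraries, though above it with the median transcript length (23.2 TPM for Tinf2 and 19.5 TPM for Terf2). Terf2ip (ENSMUSG00000033430; chr8:112011398-112020528, plus strand), the TRF2-bound RAP1 gene, had 9.57 TPM (8.76 to 10.4) and 10.1 TPM (9.32 to 10.9), from 514 and 630 counts, and a mean of 6.11 TPM with the median transcript length. Acd (ENSMUSG00000038000; chr8:105695860-105701102, minus strand), the TPP1 gene, had 9.04 TPM (8.13 to 10.04) and 9.36 TPM (8.49 to 10.3), from 355 and 427 counts. Terf2ip and Acd thus lay at 0.139 ± 0.00616 and 0.130 ± 0.00403 of the Terf1 level (SD, n = 2). Terf2, Terf2ip and Acd all lie on chromosome 8, which holds 4.84% of the genes tested.

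Pot1a (ENSMUSG00000029676; chr6:25743737-25809246, minus strand), which encodes the POT1 protein that shields single-stranded ends from damage signalling in mice, had 1030 counts in replicate 2 and 1375 in replicate 1. Its levels were 10.97 TPM (10.3 to 11.7) and 12.6 TPM (11.9 to 13.3). Pot1b, which limits resection of the 5′ strand and is the lowest shelterin gene, had 4.87 TPM (4.32 to 5.48) and 4.92 TPM (4.40 to 5.48). Pot1a exceeded Pot1b 2.25-fold and 2.56-fold. Only 0.174% of the 50-base stretches of Pot1a transcripts occurred in other genes, so few reads could belong to both paralogs. The summed exon length of Pot1a is 2.65 times that of its longest transcript, and with the length of the longest transcript Pot1a had 24.6 TPM and its ratio to Pot1b was 4.34.

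**Figure D2:**
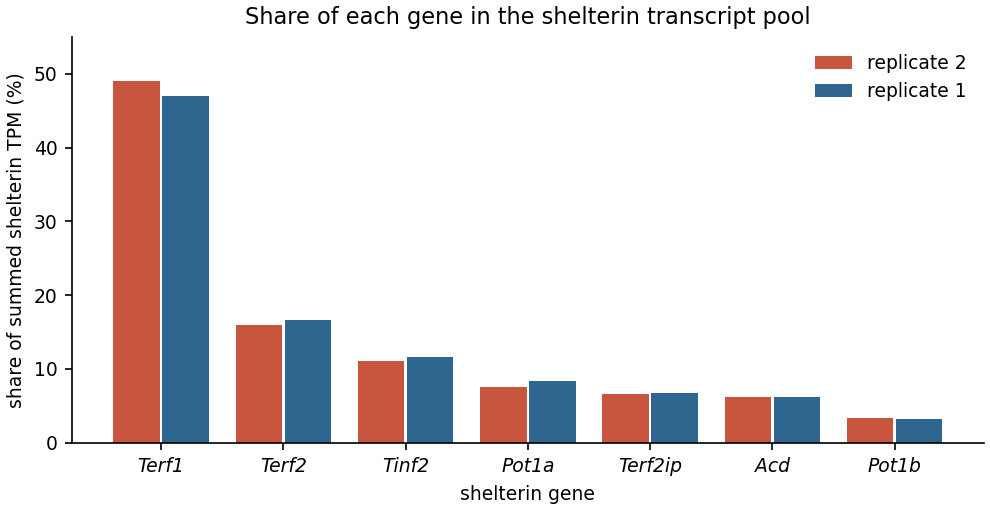
Share of each of the 7 shelterin genes in their summed TPM (%), in replicate 2 and replicate 1, as bars from 0. Terf1 takes 49.0 and 47.0%, Terf2 16.02 and 16.6%, and Pot1b 3.37 and 3.29%.

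Both genes that act beside shelterin were high. Rif1 (ENSMUSG00000036202; chr2:52072832-52122383, plus strand), found in yeast as a telomere factor and in mammals a regulator of replication timing and of break repair with 53BP1, had 16247 and 17935 counts. Its levels were 143 TPM (141 to 145) in replicate 2 and 136 TPM (134 to 138) in replicate 1, with 92.8% of expressed genes below it. Rtel1 (ENSMUSG00000038685; chr2:181319739-181356616, plus strand), a helicase that unwinds telomeric loops during replication, had 61.7 TPM (59.9 to 63.6) and 64.6 TPM (62.9 to 66.4), from 4421 and 5383 counts. It stood just below Terf1 in both libraries, but this order depends on the length used. With the median transcript length Rtel1 had 208 TPM and Terf1 60.4 TPM. Rif1 had more counts than Dkc1 but a lower TPM, since its exons sum to 10504 bases against 4121 for Dkc1.

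The libraries were then compared gene by gene with an exact binomial test (two-sided), adjusted by Benjamini-Hochberg over 19078 genes of at least 10 counts and a threshold of 0.05. The test sets the reads of 1 library against those of the other and says nothing of conditions. It counts any spread above counting error. It called 2 of the 10 genes, 1 higher and 1 lower in replicate 2. Over all genes tested it called 24.2%, with 11.2% higher and 13.1% lower, and 38.4% of the 9023 genes with at least the 782 counts of Acd, the member with the fewest. The members' share was thus no larger than the background. Their median log2 ratio of replicate 2 over replicate 1 was -0.07, beside -0.01 for all genes tested. Of the 10 genes 8 differed by less than 10%, as did 66.6% of the 9023 genes with at least as many counts as Acd.

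Pot1a was lower in replicate 2, with a log2 ratio of -0.19 ± 0.06 (counting SE; 95% exact interval -0.31 to -0.08) and an adjusted binomial p (exact) of 0.00659. Rif1 was higher in replicate 2, with a log2 ratio of 0.08 ± 0.02 (0.05 to 0.11) and an adjusted p of 5.68e-06. After removal of the trend of log2 ratios on GC content and length, Rif1 lost this call, with a log2 ratio of 0.01 and an adjusted p of 0.723. Pot1a kept it under that correction, at -0.25 and 0.000300. Rif1 has a GC content of 39.3% and Pot1a of 42.2%, beside a median of 49.8% over genes tested. edgeR's exact test, which adds a spread between libraries, called none of the 10 genes, none at an unadjusted p under 0.05 either, and 0.456% of all genes. The common coefficient of variation over genes was 9.99%, but the test used a spread trended on expression level.

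The 8 other genes were not called by the exact binomial test, which does not show that they were equal. For Tert the log2 ratio was -0.17 ± 0.09 (counting SE), its interval -0.35 to 0.01 and its adjusted p 0.163. Dkc1 was the most tightly bounded of the uncalled genes, with a log2 ratio of -0.01 and an interval of -0.06 to 0.03. Terf1 had 0.02 (-0.05 to 0.08), Terf2 -0.10 (-0.21 to 0.02), Tinf2 -0.10 (-0.23 to 0.03) and Rtel1 -0.06 (-0.12 to -0.00427). Terf2ip and Acd, with fewer counts, had wider intervals of -0.24 to 0.10 and -0.25 to 0.16. Dkc1 crossed the threshold after removal of the GC and length trend, with a log2 ratio of -0.06 and an adjusted p of 0.04997, where 21.2% of all genes were called.

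**Figure D3:**
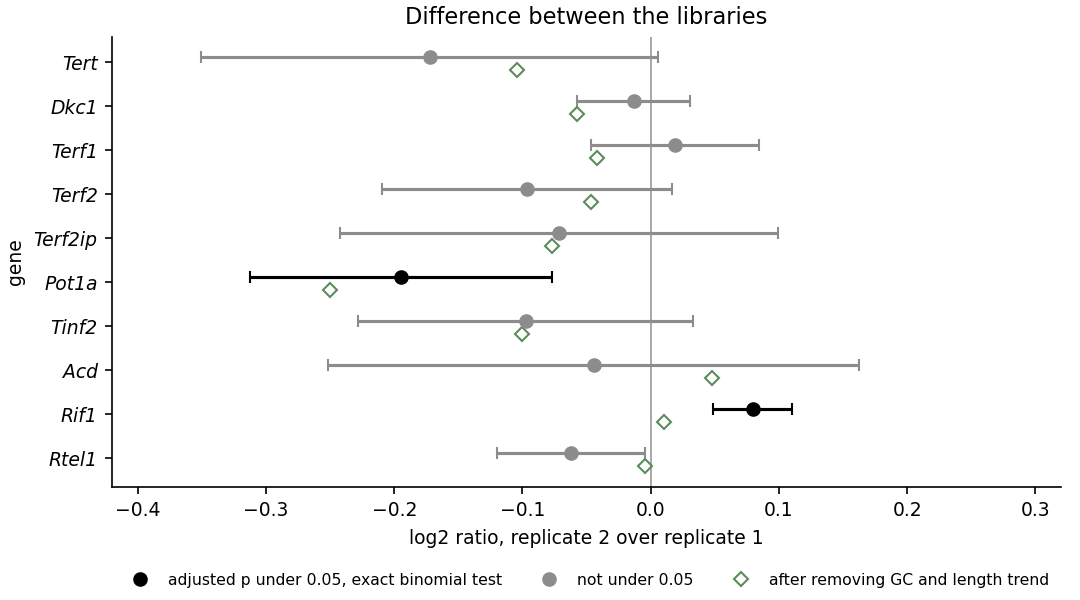
Log2 ratio of replicate 2 over replicate 1 for the 10 genes, with 95% exact binomial intervals as bars, black where the adjusted p was under 0.05. Open diamonds show the ratio after removal of the GC and length trend, where Rif1 moves to 0.01 and Pot1a to -0.25.

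Exons of 4 members overlap those of a neighbour on the opposite strand. The overlap covered 33.3% of the exon length of Acd, with Carmil2 (116 counts in replicate 2 and 169 in replicate 1), and 31.2% of that of Tinf2, with Gmpr2 (497 and 610 counts). It covered 1.09% for Dkc1, with Mpp1, and 2.18% for Terf2ip, with Gm6793. The library protocol keeps strand, but the strand setting of the counting is not given in the sources used here. How many of the Acd and Tinf2 counts belong to the neighbour, or were lost in the overlap, was not tested.

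Because Argonaute proteins act through microRNAs, the 3′ untranslated regions (UTRs) of the 10 genes were searched for matches to the most abundant microRNA family of mouse embryonic stem cells, encoded by the miR-290 cluster, and its relatives of the miR-302 cluster. The mature sequences are shown with the seed, bases 2 to 8, in capitals (RefSeq, GRCm38.p6), since this shared seed defines the site searched.
mmu-miR-291a-3p: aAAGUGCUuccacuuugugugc
mmu-miR-294-3p: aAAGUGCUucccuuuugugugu
mmu-miR-295-3p: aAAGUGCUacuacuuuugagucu
mmu-miR-302b-3p: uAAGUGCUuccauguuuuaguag
The site AGCACTT, the reverse complement of that seed, was searched on the transcript strand of the longest annotated 3′ UTR of each gene. It occurred in 3 of the 10 genes, against 17.6% of 12389 expressed protein-coding genes, and each of the 3 held 1 match. The 10 UTRs had a median length of 1068 bases, against 1164 bases for expressed genes.

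The 3 matches are shown with 11 bases on each side and the site in capitals, on GRCm38, to let the contexts be compared.
Dkc1, chrX:75109407-75109435, plus strand: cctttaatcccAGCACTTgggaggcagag
Terf2, chr8:107076247-107076275, minus strand: aaagaccagtgAGCACTTagctttatacc
Tinf2, chr14:55679156-55679184, minus strand: gaaagctttgtAGCACTTgaaaattaaat
The whole 29-base stretch of Dkc1 occurred in 112 other 3′ UTRs, and those of Terf2 and Tinf2 in none. The let-7 site CTACCTC, matching the seed of let-7a (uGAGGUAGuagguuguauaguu), occurred in none of the 10 UTRs, against 10.7% of expressed genes. Whether any of these matches is used was not tested, since no unmodified cells were analysed here.

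The rest of the telomere machinery was read from 10 lists. They name 113 genes, the 10 described ones included, and 112 could be matched. Of these, 109 were expressed, and the median list gene stood at 29.2 TPM, beside 20.4 TPM for the 10 genes. The exact binomial test called 22 of 111 tested list genes higher and 17 lower in replicate 2, or 35.1%, beside 24.2% of all genes and 38.4% of those at least as deep as Acd. Their median log2 ratio was 0.00, and edgeR's exact test called 3 of them, all Zscan4 genes, with 5 at an unadjusted p under 0.05. After removal of the GC and length trend the exact binomial test called 16 list genes higher and 16 lower, new calls included, beside 21.2% of all genes. The calls given per list below stand beside these same shares, 24.2% of all genes before the removal and 21.2% after it.

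**Figure D4:**
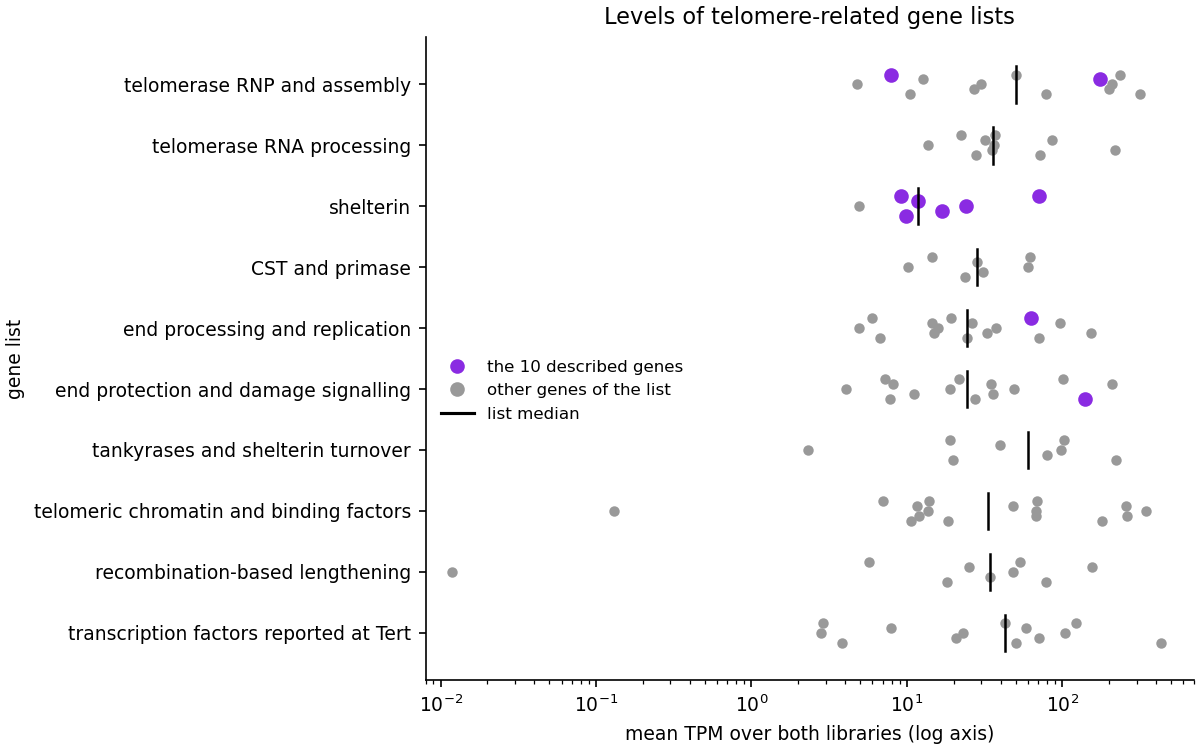
Mean TPM over both libraries (log axis) of each gene in the 10 telomere-related lists, with the 10 described genes in purple, other list genes in grey and list medians as black lines. Shelterin has the lowest median, 11.8 TPM, and the list of tankyrases and shelterin turnover the highest, 59.7 TPM.

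The telomerase particle and its assembly factors had 12 of 13 genes expressed, at a median of 50.3 TPM. The RNA-binding partners of dyskerin were high, with Nhp2 at 314 ± 10.7 TPM and Nop10 at 209 ± 5.64 TPM (SD, n = 2). Gar1, the partner that joins the mature particle, stood at 78.1 ± 7.53 TPM, and Ruvbl1, an ATPase gene of its assembly, at 236 ± 3.71 TPM, although 49.4% of the Ruvbl1 sequence recurs in other genes. Tert was exceeded by every other protein gene of this list. The RNA subunit gene Terc had 22 counts in replicate 2 and 25 in replicate 1, or 4.803 and 4.69 TPM. Its RNA carries no poly(A) tail in its mature form, and the libraries were made from poly(A) RNA, so this value does not measure its abundance. The test called 3 genes higher in replicate 2, Pinx1 (log2 ratio 0.28), Gar1 (0.20) and Naf1 (0.20), and 1 lower, Ruvbl2 (-0.09). Ruvbl2 lost its call after removal of the GC and length trend (-0.0061), and the 3 higher genes did not. Nhp2 (0.12) was then newly called higher and Dkc1 (-0.06) lower.

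Genes that mature the telomerase RNA were all expressed, 10 of 10, with a median of 35.8 TPM. Nolc1, which encodes a nucleolar chaperone of these particles, led at 218 ± 6.65 TPM, followed by Exosc10, an exosome nuclease gene, at 85.4 ± 4.67 TPM. The deadenylase gene Parn, which trims the RNA, had 32.6 TPM in replicate 2 and 31.4 TPM in replicate 1. In this list 4 genes were higher and 2 lower in replicate 2, of which Zcchc8 (-0.19) and Tgs1 (0.15) had the largest ratios. These calls were 60.0% of the list, beside 24.2% of all genes and 38.4% of those at least as deep as Acd. After removal of the GC and length trend, Zcchc8 (-0.19) and Nolc1 (0.11) were still called, Tgs1 (0.10), Dis3 (0.07), Skiv2l2 (0.05) and Exosc10 (-0.05) were not, and Papd7 (0.14) was newly called.

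Genes of the CST complex, which fills in the second strand with primase after telomerase has acted, were expressed throughout, 7 of 7 with those of primase. Ctc1 had 29.5 and 31.8 TPM, Stn1 16.6 and 12.6 TPM, and Ten1 10.4 and 9.99 TPM in replicates 2 and 1, all above Acd in both libraries. Ten1 had only 306 and 343 counts, and its level in replicate 1 lay within the Acd interval (8.49 to 10.3). The order of Ten1 and Acd was thus not resolved beyond counting error. Of this list Stn1 differed most and was higher in replicate 2, where its log2 ratio was 0.40 ± 0.08 (counting SE) and the adjusted exact binomial p 4.49e-06. The primase gene Prim1 was lower, at -0.10. After removal of the GC and length trend Stn1 (0.46) and Prim1 (-0.15) were still called, and Pola1 (-0.08) was newly called lower. The catalytic polymerase gene Pola1 stood at 62.3 ± 0.786 TPM (SD, n = 2).

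The end processing and replication genes, which include Rtel1, were all expressed (15 of 15, median 24.5 TPM). The fork protection gene Tipin (152 ± 0.996 TPM) and the flap nuclease gene Fen1 (96.9 ± 1.79 TPM) led the list, and the nuclease genes Mus81 (5.98 ± 0.214 TPM) and Dclre1b (4.91 ± 0.110 TPM), whose product Apollo works with TRF2, were lowest. Only Timeless was called, lower in replicate 2 at -0.09, and it lost the call after removal of the GC and length trend (-0.01). The end protection list, which includes Rif1, had 14 of 14 genes expressed at a median of 24.5 TPM. There the Ku genes Xrcc5 (207 ± 9.76 TPM) and Xrcc6 (101 ± 4.11 TPM) and Rif1 were the highest. It had 5 genes higher and 2 lower in replicate 2, led by Mad2l2 (-0.44), a shieldin partner, and Lig4 (0.26). After removal of the trend Mad2l2 (-0.35) was still called and the other 6 were not, Lig4 (0.21) and Rif1 (0.01) among them, while Atr (-0.11) was newly called lower.

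Regulators of shelterin turnover were led by the deubiquitinase gene Usp7 (222 ± 2.42 TPM), the nucleolar GTPase gene Gnl3 (102 ± 4.33 TPM) and Tnks2 (98.6 ± 2.06 TPM). Tnks2 is a tankyrase gene whose product can release TRF1 from telomeres in human cells. The other tankyrase gene, Tnks, had 19.0 TPM in replicate 2 and 18.8 TPM in replicate 1. The ubiquitin ligase gene Fbxo4 was low, at 2.71 and 1.94 TPM. Gnl3 was higher (0.09) and Tnks1bp1 lower (-0.11) in replicate 2, but Tnks1bp1 lost its call after removal of the GC and length trend (-0.0032). Gnl3 (0.07) kept its call, and Tnks2 (-0.08) was newly called lower. Of the chromatin genes 15 of 16 were expressed, with the histone variant H3.3 genes H3f3b (347 ± 30.2 TPM) and H3f3a (256 ± 3.72 TPM) and the HP1 gene Cbx5 (259 ± 18.1 TPM) at the top. The cohesin gene Stag1 (0.40), Kmt5c (-0.23) and Zbtb48 (-0.25), which encodes a telomere-binding zinc finger protein, had the largest ratios among the 3 higher and 2 lower genes. Zbtb48 lost its call after removal of the trend (-0.16), whereas Stag1 (0.34) and Kmt5c (-0.13) were still called. Atrx (-0.09) was newly called lower.

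Genes linked to telomere lengthening by recombination contained the largest differences. Zscan4f had 102 TPM in replicate 2 and 208 TPM in replicate 1, Zscan4c 53.4 and 103 TPM, and Zscan4d 36.9 and 69.5 TPM. All 3 were lower in replicate 2, by log2 ratios of -1.02, -0.95 and -0.91, and passed edgeR's exact test with adjusted p of 4.70e-09, 4.80e-06 and 0.000188. These paralogs share 49.6 to 86.8% of their sequence with other genes, so their values are uncertain one by one. Of the 10 genes the furthest from 0 on this scale was Pot1a, at -0.19. Tbx3, a regulator of Zscan4, was higher (0.18), and the meiotic gene Spo11 had 1 count in replicate 2 and none in replicate 1. Dmc1 was called lower only after removal of the GC and length trend (-0.24).

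Transcription factors reported to act at the Tert promoter were expressed in 13 of 13 cases, at a median of 42.6 TPM. Ctnnb1, the beta-catenin gene, led at 430 ± 13.3 TPM, followed by Sp1 at 122 ± 3.42 TPM and Mycn at 104 ± 15.1 TPM. Myc had 23.8 TPM in replicate 2 and 17.8 TPM in replicate 1. The test called 4 genes higher in replicate 2, among them Myc (0.42) and Mycn (0.30), and 3 lower, among them Mxd4 (-0.56), a MYC antagonist. Tert was not called in the same comparison, at -0.17. With 2 libraries, no relation between Tert and any of these genes could be computed.

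**Figure D5:**
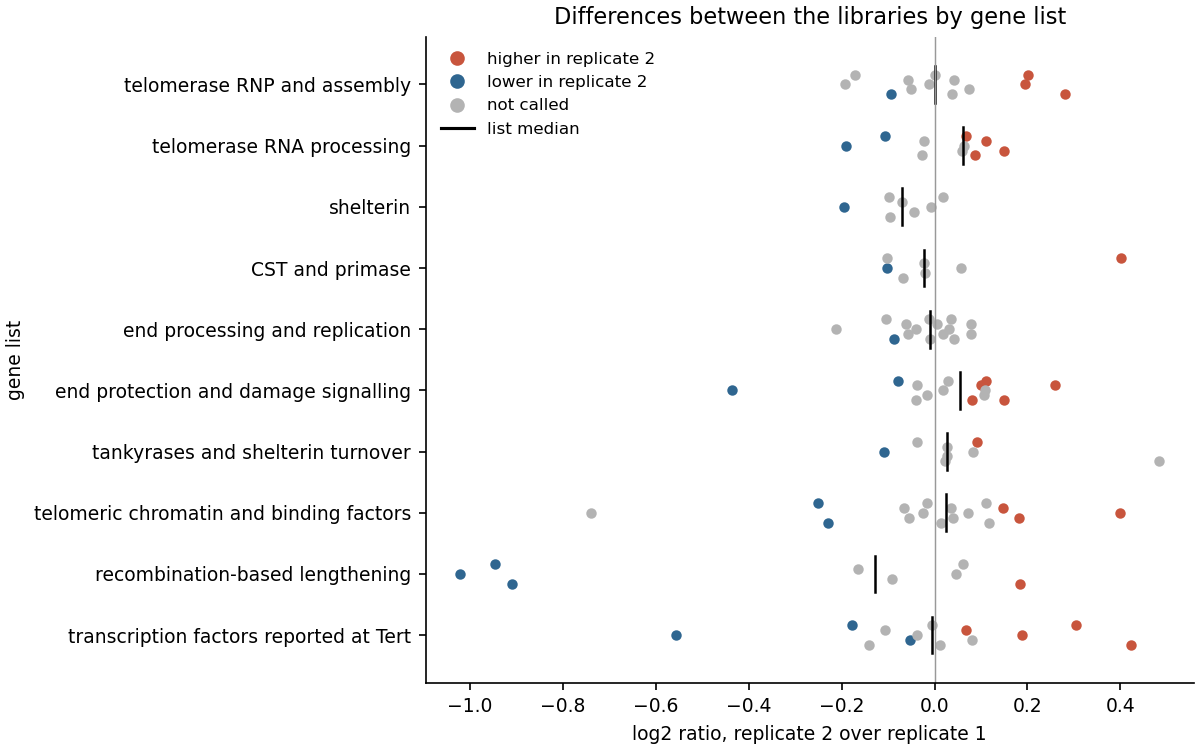
Log2 ratio of replicate 2 over replicate 1 for each tested gene in the 10 lists, red where called higher in replicate 2, blue where called lower and grey where not called by the exact binomial test, with list medians as black lines. The 3 Zscan4 genes lie near -1, and the shelterin genes between -0.19 and 0.02.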

How the data were processed

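Poly(A) RNA of 2 libraries of 1 genotype was analysed. Trizol extraction and reverse-stranded TruSeq libraries from 1 ug of RNA are given per the labels' protocols. STAR 2.4.2a and GRCm38 (mm10) are named in the submitters' processing notes. Each deposited file gives raw counts, as whole reads per Ensembl gene; neither the counting tool nor its strand setting or annotation is given in the sources used here.

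Of 47643 gene IDs, 47224 were named with GENCODE M21, which also gave positions and exon lengths. Papd5, Papd7 and Skiv2l2 were found under newer symbols through RefSeq synonyms, and Shld3 was not analysed here. TPM used the summed length of a gene's exons. Log2 ratios used a pseudocount of 0.5 counts and TMM-scaled library totals (factors 1.00 and 0.999, edgeR 4.0.16). The two-sided exact binomial tests used scipy 1.17.1. GC and length trends were removed with lowess (fraction 0.3, statsmodels 0.14.6), using the GC content of the longest transcript. edgeR's exact test served as an alternative. Its trended dispersion came from treating both libraries as 1 group, and so holds the differences it is set against. DESeq2 1.42.0 gave size factors for another alternative. The tests were first run on simulated counts. The rule for named genes took all 10 members, Ago1, Ago2, Pot1b and neighbours with overlapping exons, and of each list the 3 highest, the 2 lowest and up to 3 called genes with the largest ratio; some so named are not reported, and Parn, Ruvbl2, Tbx3, Dis3 and Atr were added after their values were seen. Members and lists were chosen with earlier results of these data known.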

Additional observations from a re-analysis of the deposited data

How the results depend on the processing

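All 10 genes stayed expressed at 0.5 CPM, 5 CPM, 1 TPM and in either library alone, as did 108 to 110 of the 112 list genes. Under DESeq2 size factors, totals without TMM and other count filters, the exact binomial test called the same number of members (2), and the median log2 ratio of the members ran from -0.07 to -0.05 over all alternatives. Calls depend on the error they are set against. With edgeR's exact test, 0 members (0 at an unadjusted p under 0.05), 3 list genes and 87 genes in all were called (860 at an unadjusted p under 0.05), against 2, 39 and 4624 with the exact binomial test, and 25.3% of the calls were higher in replicate 2, against 46.1%. Removal of the GC and length trend left 2 members called, Pot1a and Dkc1 in place of Pot1a and Rif1, and turned the sign of Terf1 (-0.042) and Acd (0.048), neither called in either fit; the cause was not tested.

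Levels depend on the length used. The median member stood at 28.6 TPM with the longest transcript and at 38.5 CPM without any length, against 20.4 TPM, and at 19.7 TPM in replicate 2 alone and 21.1 TPM in replicate 1 alone. With the longest transcript, the ratio to Terf1 was 0.370 for Terf2, 0.122 for Terf2ip, 0.279 for Pot1a, 0.219 for Tinf2, 0.0945 for Acd and 0.0643 for Pot1b, and Pot1a over Pot1b was 4.34 and Tert over Dkc1 0.0410. With the median transcript length these were 0.101 for Terf2ip, 0.314 for Pot1a, 0.383 for Tinf2 and 0.140 for Acd, with Pot1a over Pot1b at 4.501 and Tert over Dkc1 at 0.0157. In the means over both libraries, Dkc1 stayed highest and Tert lowest under all 3 lengths, and Terf1 stayed the highest shelterin gene. Tert was lowest only narrowly, at 8.22 TPM beside 8.32 TPM for Acd with the longest transcript. With the median it had 6.05 TPM beside 6.11 TPM for Terf2ip. In replicate 1 alone Tert was not the lowest under either of these lengths. Pot1a passed Tinf2 with the longest transcript. With the median, Rtel1 passed Rif1 and Terf1, Tinf2 passed Terf2, and Acd passed Terf2ip. In CPM, Rif1 was highest and Acd lowest. No paired analysis was possible because the series holds 1 group. Leaving out a library leaves no ratio.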
